A study of Mus musculus with 15 samples.

Results

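The RNA of 10 subunits of the Polycomb repressive complexes was followed in mouse embryonic stem cells with a knockout of Taf5l, Taf6l or Myc. They are Ezh2, Eed, Suz12, Jarid2 and Mtf2 of Polycomb repressive complex 2 (PRC2), and Rnf2, Ring1, Kdm2b, Cbx7 and Pcgf6 of Polycomb repressive complex 1 (PRC1). The members were chosen by name, with earlier results of these data known. Each symbol matched 1 row among the 37310 genes of the count table, and all 10 passed the filter on low counts in both experiments. In both Taf knockouts most of the members had slightly less RNA than in wild type, with Cbx7 furthest down (17.7% lower in Taf5l-KO and 24.1% lower in Taf6l-KO). In the Myc knockout no member was called lower, and Cbx7, Eed and Pcgf6 were called higher by 17.1% to 19.8%. That was 30% of the members, where 34.8% of all genes tested were called. In 13 alternative analyses the Cbx7 call was lost in 1, the Eed call in 3 and the Pcgf6 call in 6.

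Polycomb proteins keep developmental genes silent in cells that do not use them. PRC2 methylates lysine 27 of histone H3 through its catalytic subunit EZH2, which needs EED and SUZ12 to work, while JARID2 and MTF2 help to bring the complex to unmethylated CpG islands. PRC1 ubiquitinates histone H2A through RNF2 (RING1B) or RING1; CBX7 lets the canonical form bind the PRC2 mark, and KDM2B and PCGF6 belong to variant forms that reach chromatin without it. In embryonic stem cells these complexes cover the promoters of Hox genes and of many other lineage regulators, and cells without PRC2 still self-renew but differentiate poorly.

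RNA was measured in 15 libraries of the J1 line, male mouse embryonic stem cells grown in serum with leukaemia inhibitory factor. A set of 3 libraries each came from Taf5l-KO, from Taf6l-KO and from wild-type J1 cells for these knockouts (WT-Taf), and 3 each from cMyc-KO and from wild-type J1 cells of its own (WT-Myc). The proteins TAF5L and TAF6L sit in SAGA, which acetylates histones at active genes, while MYC drives transcription of genes for growth. The labels give no promoter, Cre or drug, and do not say how many clones a knockout stands for (the 3 cMyc-KO libraries share a code whose meaning is not given) or whether replicates were separate cultures, so the p-values rest on a spread between libraries that may be technical.

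Each library held 14935631 to 27650813 counts. The targeted genes were checked first: Taf5l was 42.5 ± 0.681 CPM (the cpm unit of edgeR, counts relative to the TMM-scaled size of the library after the filter on low counts; mean ± SD, n = 3) in Taf5l-KO and 86.0 ± 1.89 in WT-Taf. Taf6l stood at 26.1 ± 0.851 CPM in WT-Taf and at 6.59 ± 0.556 in its own knockout, and Myc was 29.2 ± 1.60 in cMyc-KO and 66.8 ± 2.08 in WT-Myc. All 3 were thus lower in their own knockout, and none was at 0. The 8 naive stem cell markers summed to 4898 to 7536 CPM with none at 0 in any library, whereas the 8 feeder fibroblast markers summed to 43.3 to 75.2 CPM with up to 5 of 8 at 0. The naive sum was 5775 to 5827 in WT-Taf, between 4990 and 5074 in Taf5l-KO and between 4898 and 4932 in Taf6l-KO, but 7272 to 7536 in cMyc-KO and 6543 to 6673 in WT-Myc. It was therefore below wild type in both Taf knockouts and above it in cMyc-KO. The sum of the 8 extraembryonic endoderm markers moved the other way in the Taf knockouts. It was 276 to 280.0 CPM in WT-Taf, 354 to 358 in Taf5l-KO and between 425 and 429 in Taf6l-KO (up to 2 of 8 at 0). In cMyc-KO it was 627 to 663 and in WT-Myc 648 to 675. The single genes did not move together. Of 6 tested, 3 were called higher and 2 lower in Taf5l-KO (edgeR, adjusted p under 0.05), with a median log2 fold change of 0.015. The counts were 3 and 1 in Taf6l-KO (median 0.43), and 1 and 1 in cMyc-KO (-0.03). The 6 neuroectoderm markers summed to 83.5 to 87.4 CPM in WT-Taf, 54.4 to 59.3 in Taf5l-KO and between 66.0 and 70.1 in Taf6l-KO. Their sum was 80.3 to 94.0 in cMyc-KO and 116 to 123 in WT-Myc (up to 3 of 6 at 0). This sum was below wild type in all 3 knockouts, but single genes differed. Of 3 tested, 2 were called higher and 1 lower in each Taf knockout (median log2 fold change 0.64 in Taf5l-KO and 0.84 in Taf6l-KO). In cMyc-KO 0 were called higher and 2 lower (median -0.44). The 8 mesoderm markers summed to 7.31 to 9.20 CPM in all groups. Of 5 tested, 1 was called higher and 0 lower in Taf5l-KO, and 1 and 1 in Taf6l-KO and in cMyc-KO. Of the 8 naive markers 1 was called higher and 5 lower in Taf5l-KO, 0 and 7 in Taf6l-KO, and 5 and 0 in cMyc-KO. Over all genes tested 33.2% were called in Taf5l-KO, 37.2% in Taf6l-KO and 34.8% in cMyc-KO. The part of these markers in the members' results was not tested, and in bulk RNA fewer cells of a type and less RNA per cell cannot be told apart. Small non-coding RNAs held 0.638% to 0.952% of counts in the Taf libraries but only 0.00545% to 0.00823% in the Myc libraries, although the labels give both the same protocol, so levels are not compared between experiments. Replicate 3 of cMyc-KO stood apart from its own group: the chi-square of its counts, divided by the degrees of freedom, was 36.4 against replicate 1 and 26.3 against replicate 2. The value for replicates 1 and 2 was 5.07.

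Per length, 9 of the 10 members were well-expressed genes. Levels were set per kilobase of the longest coding transcript, and in WT-Taf Jarid2 (104 ± 2.95 CPM per kb) and Eed (103 ± 1.97) led, with ranges that overlapped. Mtf2 followed at 87.5 ± 1.63, Rnf2 at 66.1 ± 1.98, Suz12 at 65.9 ± 1.37 and Ezh2 at 53.9 ± 1.68, and of these neighbours only Rnf2 and Suz12 overlapped. Cbx7 (37.5 ± 0.546), Kdm2b (27.4 ± 0.230) and Pcgf6 (25.8 ± 0.990) came next without overlap. Ring1, the paralogue of Rnf2, was far below all others at 3.24 ± 0.347 CPM per kb, the 37.9th percentile of 13173 tested genes with a length, where the other 9 lay at the 81.7th to 95.9th percentile. In WT-Myc the same genes stood at both ends, with Eed at 96.4 ± 5.60, Jarid2 at 94.2 ± 0.909, Pcgf6 at 20.1 ± 1.38 and Ring1 at 3.62 ± 0.368 CPM per kb.

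**Figure D1:**
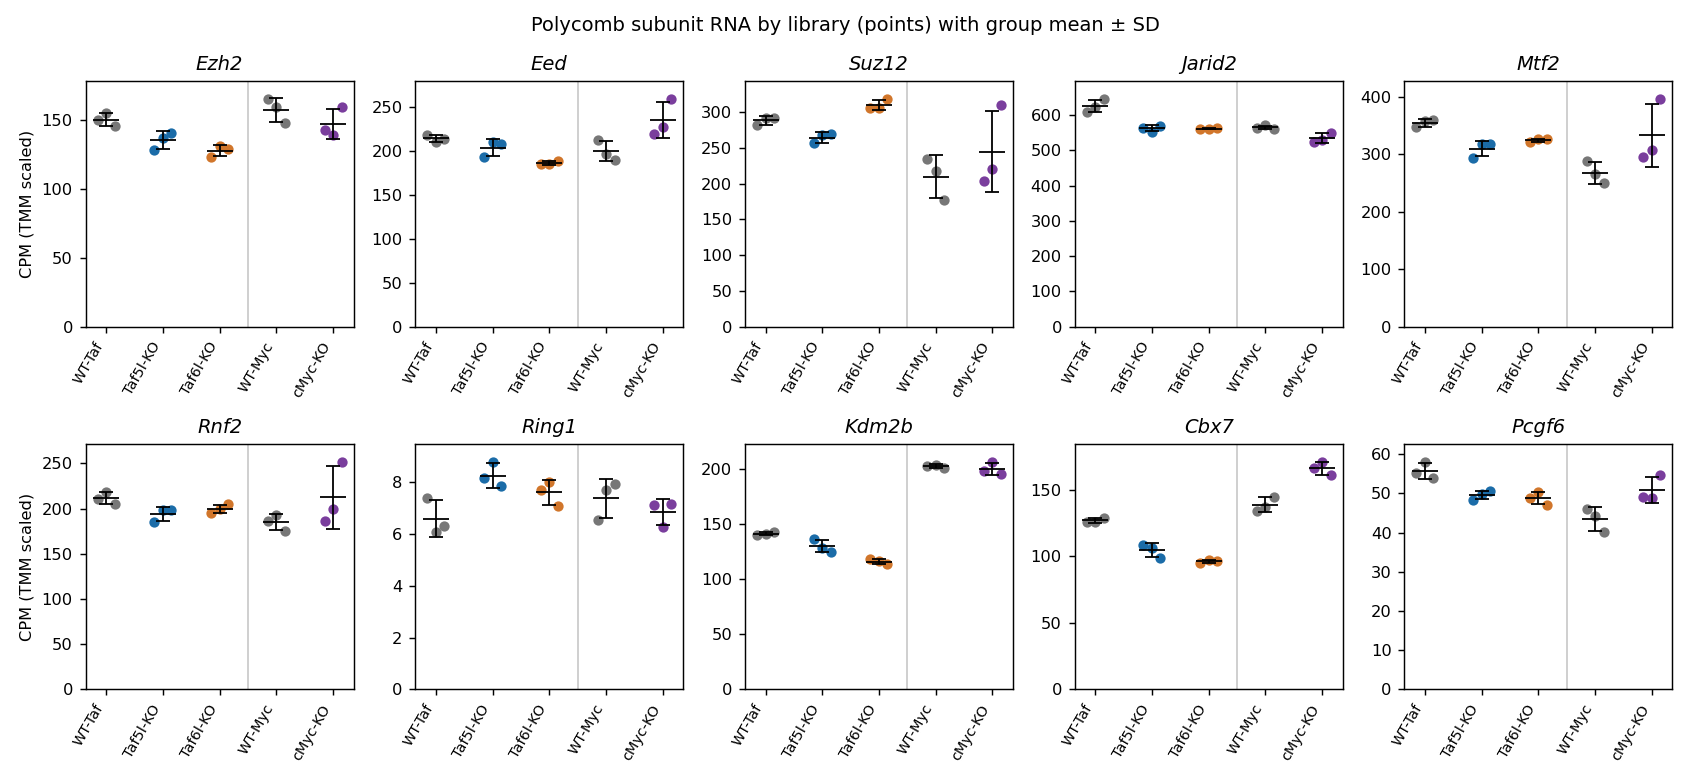
TMM-scaled CPM (y axis, from 0) of the 10 members in each of the 15 libraries, by group (x axis); points are libraries, bars the group mean ± SD, and the grey line separates the Taf from the Myc experiment. Cbx7 sits at 94.9 to 109 CPM in the 6 Taf knockout libraries and at 126 to 129 in WT-Taf, and cMyc-KO replicate 3 is the highest point of its group for Suz12, Mtf2, Rnf2 and Eed.

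In Taf5l-KO 8 members were called lower and 1 higher, and in Taf6l-KO 7 were called lower and 1 higher, by edgeR's quasi-likelihood test at an adjusted p under 0.05. Calls were common in these comparisons: 33.2% of the 15743 genes tested were called in Taf5l-KO (17.4% higher, 15.9% lower) and 37.2% in Taf6l-KO (19.1% higher, 18.2% lower), and among 9238 genes within the members' range of counts 43.4% and 47.8% were called. The members' median log2 fold change was -0.14 in Taf5l-KO and -0.18 in Taf6l-KO, where the median over all genes tested was 0.00054 and 0.02. Both knockouts were set against the same 3 WT-Taf libraries, so their values are given side by side and not as independent evidence. With all 15 libraries in a single fit, 5 members were called lower and 1 higher in Taf5l-KO, and 6 lower and 0 higher in Taf6l-KO. When libraries were scaled by their totals alone, the share of called genes that were higher in Taf6l-KO went from 51.2% to 69.0%, and of the members 5 were called lower and 2 higher. The changes were small, and the spread between libraries was small as well, with a biological coefficient of variation of 4.23% in the Taf experiment.

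Ezh2, which carries the PRC2 methyltransferase activity, read 129, 137 and 141 CPM in the Taf5l-KO libraries, 123, 131 and 129 in Taf6l-KO and 150.1, 155 and 145 in WT-Taf. All 6 knockout libraries lay below the 3 wild-type ones. The log2 fold change was -0.15 ± 0.040 (SE; adjusted p = 0.0104) in Taf5l-KO and -0.23 ± 0.040 (adjusted p = 0.000344) in Taf6l-KO. The first of these calls was lost without WT-Taf replicate 2 (adjusted p = 0.0568) and from FPKM with limma (0.342).

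Eed binds the finished H3K27 mark and activates EZH2. It read 192, 209 and 208 CPM in Taf5l-KO, 185, 185 and 188 in Taf6l-KO and 218, 210.1 and 213 in WT-Taf. Its groups did not overlap in either comparison, yet the call was made in Taf6l-KO (log2 fold change -0.20 ± 0.035, adjusted p = 0.000476) and not in Taf5l-KO (-0.07 ± 0.035, adjusted p = 0.134). The direct comparison of the knockouts called Eed lower in Taf6l-KO than in Taf5l-KO, by -0.13 ± 0.035 (adjusted p = 0.0215). That call was lost without any 1 of 4 libraries: Taf5l-KO replicate 2 (0.0888) or 3 (0.0584), or Taf6l-KO replicate 1 (0.0617) or 2 (0.0686).

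Suz12, the scaffold of PRC2, went opposite ways in the Taf knockouts. It read 256, 267 and 269 CPM in Taf5l-KO, 306, 306 and 318 in Taf6l-KO and 281, 292 and 291 in WT-Taf, so every Taf5l-KO library lay below wild type and every Taf6l-KO library above it. The log2 fold change was -0.12 ± 0.032 (adjusted p = 0.00867) in Taf5l-KO and 0.11 ± 0.032 (adjusted p = 0.0183) in Taf6l-KO, and Taf6l-KO exceeded Taf5l-KO by 0.23 ± 0.032 (adjusted p = 0.000243). The rise in Taf6l-KO was not called by DESeq2 (adjusted p = 0.0504), from FPKM with limma (0.514) or without Taf6l-KO replicate 3 (0.0893) or WT-Taf replicate 1 (0.0891). With all 15 libraries in a single fit none of the 3 Suz12 calls was made (adjusted p = 0.434 in Taf5l-KO, 0.58 in Taf6l-KO and 0.223 between them).

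Suz12 lies on chromosome 11, where many genes were higher in Taf6l-KO. Of its 1300 tested genes 508 were called higher and 84 lower there, with a median log2 fold change of 0.16. The 40 tested genes nearest to Suz12 had a median of 0.19, with 22 called higher and the rest not called, and 29 of them lay above Suz12 itself. In Taf5l-KO the same 40 neighbours had a median of -0.04, with 8 called higher and 10 lower. Suz12 thus rose by less than the typical gene beside it, and the part of the shift of its neighbours in its rise was not tested. Ezh1, Epop, Pcgf2, Cbx2, Cbx8, Dcaf7 and Kdm6b, which are among the other subunits and the opposing enzymes, are on chromosome 11 as well.

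**Figure D2:**
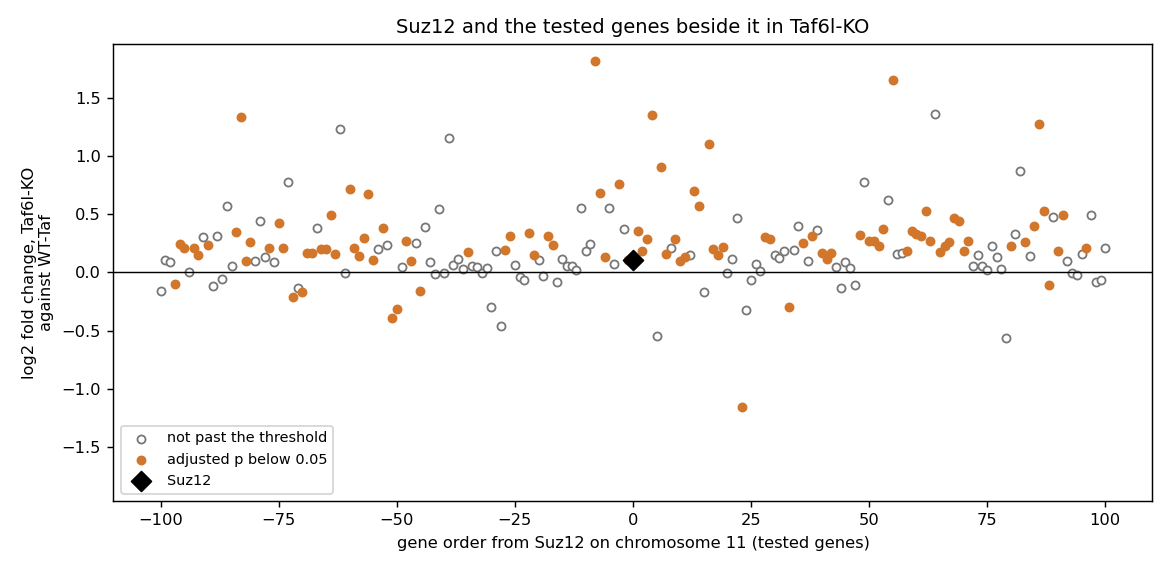
Log2 fold change in Taf6l-KO against WT-Taf (y axis) of Suz12 (black diamond) and the 100 tested genes on each side of it on chromosome 11, by gene order (x axis); filled points passed an adjusted p of 0.05. Of the 200 neighbours 88 are called higher and 9 lower, and Suz12 lies inside their spread.

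Jarid2 and Mtf2, accessory subunits of PRC2, were lower in both. Jarid2 read 565, 553 and 569 CPM in Taf5l-KO, 560.3, 562 and 563 in Taf6l-KO and 609.7, 624 and 645 in WT-Taf. The knockouts lay below wild type throughout, with log2 fold changes of -0.16 ± 0.030 in each (adjusted p = 0.00105 and 0.000843). The Jarid2 calls were not made from deposited FPKM values (adjusted p = 0.821 and 0.327), and in Taf6l-KO the call was lost when library totals replaced TMM scaling (0.0817). Mtf2, a Polycomb-like protein that binds CpG-rich DNA, read 295, 318 and 318 CPM in Taf5l-KO, 322, 327 and 326 in Taf6l-KO and 347, 358 and 360 in WT-Taf. Its 6 knockout libraries all lay below wild type, with log2 fold changes of -0.19 ± 0.034 (adjusted p = 0.000521) and -0.13 ± 0.034 (adjusted p = 0.00889). The Mtf2 call in Taf6l-KO was lost under library totals (-0.06, adjusted p = 0.253), and with all 15 libraries in a single fit Mtf2 was called in neither knockout (adjusted p = 0.062 in Taf5l-KO and 0.208 in Taf6l-KO).

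The catalytic subunits of PRC1 followed different patterns. Rnf2, the main H2A ubiquitin ligase of embryonic stem cells, read 185, 198 and 198 CPM in Taf5l-KO, 195, 199 and 205 in Taf6l-KO and 211, 218 and 206 in WT-Taf. It was called lower in Taf5l-KO (log2 fold change -0.13 ± 0.037, adjusted p = 0.0152) but not in Taf6l-KO (-0.08 ± 0.036, adjusted p = 0.085), and the direct comparison of the knockouts gave 0.04 ± 0.037 (adjusted p = 0.462). Without Taf5l-KO replicate 1 (adjusted p = 0.0545) or WT-Taf replicate 2 (0.0807) the Rnf2 call in Taf5l-KO was lost, as it was from FPKM with limma (0.0816) and with all 15 libraries in a single fit (0.204). Ring1 read 8.13, 8.77 and 7.83 CPM in Taf5l-KO, 7.70, 7.999 and 7.07 in Taf6l-KO and 7.39, 6.07 and 6.30 in WT-Taf. Its log2 fold change was 0.32 ± 0.103 in Taf5l-KO (adjusted p = 0.0261) and 0.20 ± 0.103 in Taf6l-KO (adjusted p = 0.144). These Ring1 values rest on 93 to 172 counts per library, and the Taf5l-KO call was lost by DESeq2 (adjusted p = 0.155) and without any 1 of Taf5l-KO replicate 2 (0.0964), WT-Taf replicate 2 (0.114) or WT-Taf replicate 3 (0.0761).

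Cbx7, the chromodomain protein of canonical PRC1 in stem cells, changed most among the members called lower. It read 109, 106 and 98.5 CPM in Taf5l-KO, 94.9, 97.4 and 96.5 in Taf6l-KO and 126, 126 and 129 in WT-Taf, so every knockout library lay below every wild-type one. The log2 fold change was -0.28 ± 0.038 (adjusted p = 5.29e-05) in Taf5l-KO and -0.40 ± 0.038 (adjusted p = 1.47e-06) in Taf6l-KO. Both calls held in all 14 alternatives tried for them.

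Kdm2b and Pcgf6, subunits of variant PRC1, were lower too. Kdm2b, whose zinc finger brings PRC1 to unmethylated CpG islands, read 136, 129 and 125 CPM in Taf5l-KO, 118, 117 and 114 in Taf6l-KO and 141, 141 and 143 in WT-Taf. Its log2 fold change was -0.12 ± 0.035 (adjusted p = 0.0162) in Taf5l-KO and -0.28 ± 0.035 (adjusted p = 2.2e-05) in Taf6l-KO. The Kdm2b call in Taf5l-KO did not hold when WT-Taf replicate 3 was left out (adjusted p = 0.0542), nor when replicate 2 (0.0521) or 3 (0.0618) of Taf5l-KO was. Pcgf6, the subunit of the PRC1.6 form that represses germline genes, read 48.4, 49.7 and 50.6 CPM in Taf5l-KO, 48.9, 50.3 and 47.1 in Taf6l-KO and 55.3, 58.0 and 53.8 in WT-Taf. It was lower by -0.17 ± 0.042 (adjusted p = 0.00652) and -0.19 ± 0.042 (adjusted p = 0.00217) on the log2 scale, and both calls held in all 14 alternatives.

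The Taf knockouts also differed from each other in 4 members, where 18.7% of all genes tested were called (8.55% higher in Taf6l-KO, 10.1% lower). Suz12 was higher in Taf6l-KO, and Eed, Kdm2b (-0.16 ± 0.035, adjusted p = 0.00517) and Cbx7 (-0.12 ± 0.038, adjusted p = 0.0443) were lower. The Cbx7 call was lost in 11 of 14 alternatives, and 2 members were called without Taf5l-KO replicate 2 or without Taf6l-KO replicate 1 or 2. The scaling matters here: with library totals the share of called genes that were higher in Taf6l-KO went from 45.8% to 83.1%, the median of all genes moved to 0.10, and of the members 3 were called higher and 0 lower.

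**Figure D3:**
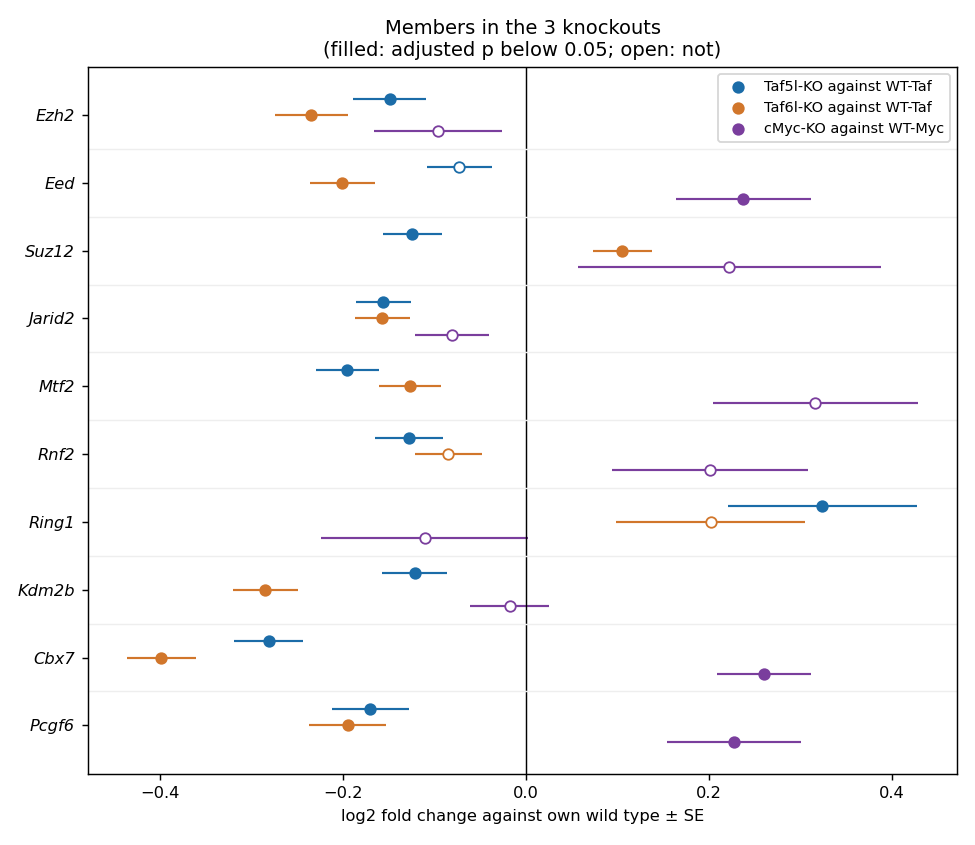
Log2 fold change against the own wild type (x axis, ± SE) of each member (y axis) in Taf5l-KO, Taf6l-KO and cMyc-KO; filled points passed an adjusted p of 0.05. Cbx7 lies at -0.28 and -0.40 in the Taf knockouts and at 0.26 in cMyc-KO, while Suz12 lies on opposite sides of 0 in Taf5l-KO and Taf6l-KO.

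In the Myc knockout 3 members were called higher and 0 lower, with 34.8% of 14563 genes called (15.2% higher, 19.5% lower) and 37.9% of 9287 genes in the members' range of counts. The other 7 did not pass the test. The count of lower calls was also 0 at an unadjusted p under 0.05 and by DESeq2 and limma. Without WT-Myc replicate 2 or 3 only Cbx7 was called. The median log2 fold change of the members was 0.21, against -0.0019 over all genes. Replicates varied more here, with a biological coefficient of variation of 10.2%.

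Cbx7 read 166, 171 and 161 CPM in cMyc-KO and 134, 137 and 145 in WT-Myc, which do not overlap. Its log2 fold change of 0.26 ± 0.051 (adjusted p = 0.00621) passed the test with any single library left out. Eed read 219, 227 and 258 CPM in cMyc-KO and 212, 196 and 190 in WT-Myc, which gave a log2 fold change of 0.24 ± 0.074 (adjusted p = 0.0396). Its call was lost without WT-Myc replicate 2 (adjusted p = 0.128) or replicate 3 (0.13). Pcgf6 read 49.1, 48.9 and 54.6 CPM in cMyc-KO and 46.0, 44.3 and 40.2 in WT-Myc, which gave a log2 fold change of 0.23 ± 0.073 (adjusted p = 0.0442). The Pcgf6 call was lost without cMyc-KO replicate 2 (adjusted p = 0.0505) or without any 1 of the WT-Myc libraries (0.0568 to 0.145).

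Several other members read high in a single Myc knockout library. In cMyc-KO Suz12 read 203, 221 and 309 CPM, Mtf2 296, 308 and 396, and Rnf2 186, 199 and 252, with replicate 3 the highest each time. The wild-type libraries read 234, 218 and 177 CPM for Suz12, 288, 266 and 249.6 for Mtf2 and 186, 193 and 176 for Rnf2, with replicate 3 the lowest each time. Of these 3 genes only Mtf2 had groups that did not overlap. Mtf2 had a log2 fold change of 0.32 ± 0.112 (adjusted p = 0.0613), and without replicate 3 it was 0.19 and passed (adjusted p = 0.0206), as it did with all libraries by DESeq2 (adjusted p = 0.00938). Without that library 4 members were called higher and 0 lower. Suz12 (0.22 ± 0.165, adjusted p = 0.337) and Rnf2 (0.20 ± 0.107, adjusted p = 0.185) did not pass. Without replicate 3 of cMyc-KO the log2 fold change was 0.04 for Suz12 (adjusted p = 0.777), 0.08 for Rnf2 (0.225) and 0.18 for Eed, which was still called (0.0175).

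The remaining 4 members did not pass the test in the Myc knockout. Ezh2 read 143, 139 and 159.6 CPM in cMyc-KO and 165, 159 and 148 in WT-Myc, which gave a log2 fold change of -0.10 ± 0.070 (adjusted p = 0.324). Jarid2 read 523, 529 and 549.7 CPM in cMyc-KO and 564, 571 and 559.7 in WT-Myc, below wild type in all 3 libraries with a log2 fold change of -0.08 ± 0.040 (adjusted p = 0.162). Kdm2b stood at 200 ± 5.69 CPM in cMyc-KO and 203 ± 1.84 in WT-Myc, and Ring1 at 6.84 ± 0.512 and 7.37 ± 0.748, with overlapping groups for both.

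The difference between the experiments was tested as the mean Taf effect minus the Myc effect, in which 35.3% of 16286 genes were called (16.9% higher, 18.4% lower). Of the members 7 were called lower on this scale and 0 higher; at an unadjusted p under 0.05 1 was higher (Ring1), and by DESeq2 0. The sizes were -0.64 ± 0.063 for Cbx7 (adjusted p = 1.05e-06), -0.52 ± 0.100 for Mtf2 (0.000808), -0.45 ± 0.071 for Pcgf6 (0.000124) and -0.42 ± 0.069 for Eed (0.00021). Rnf2 (-0.35 ± 0.098, adjusted p = 0.0114) and Kdm2b (-0.23 ± 0.053, 0.00339) passed as well, and Jarid2 (-0.12 ± 0.044, 0.0475) passed by little. Leaving out WT-Taf replicate 3 gave Jarid2 an adjusted p of 0.15, and its call was lost in 19 of 21 alternatives. The Rnf2 call was lost from FPKM with limma (adjusted p = 0.0594). Without cMyc-KO replicate 3 the difference was -0.22 for Rnf2 (adjusted p = 0.00518), -0.39 for Mtf2 (5.17e-05) and -0.08 for Suz12 (0.533). Ezh2 (-0.14 ± 0.069, adjusted p = 0.139), Suz12 (-0.27 ± 0.148, 0.171) and Ring1 (0.33 ± 0.141, 0.077) did not. Myc RNA itself was lower in both Taf knockouts, at 42.7 ± 0.987 CPM in Taf5l-KO and 39.0 ± 2.68 in Taf6l-KO against 69.2 ± 3.26 in WT-Taf.

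The other subunits of the complexes gave a mixed picture. Of 7 further PRC2 subunits 2 were called higher and 2 lower in Taf5l-KO, with a median of 0.10 on the log2 scale. The counts were 2 and 3 in Taf6l-KO (median -0.02), but 2 and 1 without Taf6l-KO replicate 1. They were 1 and 1 in cMyc-KO (0.02), where a single gene was called in 10 of 13 alternatives. The share of the 7 called was 57.1% in Taf5l-KO, 71.4% in Taf6l-KO and 28.6% in cMyc-KO, against 33.2%, 37.2% and 34.8% of all genes tested. Epop, listed under its older symbol E130012A19Rik, links PRC2 to elongin and fell by 0.41 on the log2 scale in Taf5l-KO (adjusted p = 2.17e-07) and by 0.18 in Taf6l-KO (adjusted p = 0.000427). Phf19, a Polycomb-like relative of Mtf2, rose by 0.53 ± 0.105 and 0.43 ± 0.105, and Ezh1, the paralogue of Ezh2, rose in Taf6l-KO by 0.39 ± 0.065 (adjusted p = 0.000316). In cMyc-KO Phf1, the third Polycomb-like gene, rose by 0.73 ± 0.162 (adjusted p = 0.0106) and Aebp2, an accessory subunit, fell by 0.20 (adjusted p = 0.0469).

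Of 24 further PRC1 subunits 7 were called higher and 3 lower in Taf5l-KO (median 0.05), 9 and 4 in Taf6l-KO (0.09), and 3 and 4 in cMyc-KO (-0.04). In Taf6l-KO they were 4 and 4 without WT-Taf replicate 1 and by DESeq2. The share of the 24 called was 41.7% in Taf5l-KO, 54.2% in Taf6l-KO and 29.2% in cMyc-KO, against 33.2%, 37.2% and 34.8% of all genes tested. Pcgf2 (MEL18), a core subunit of canonical PRC1, went from 67.6 CPM in WT-Taf to 47.0 in Taf5l-KO and 49.7 in Taf6l-KO, with log2 fold changes of -0.52 ± 0.038 and -0.44 ± 0.037. Bcor, a subunit of the PRC1.1 form with Kdm2b, rose by 0.47 ± 0.041 and 0.39 ± 0.041 in the Taf knockouts and by 0.23 ± 0.050 in cMyc-KO. Cbx6, a relative of Cbx7, fell by 0.25 and 0.39 on the log2 scale in the Taf knockouts (adjusted p = 0.00208 and 4.05e-05). In cMyc-KO Scmh1, a sex comb on midleg homologue, fell by 0.89 on the log2 scale (adjusted p = 0.000286).

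Grouped by family, the abundant paralogue and its rarer relatives differed in sign in some families in the Taf knockouts. This grouping of 26 subunits into 9 families was made after their values were seen and carries no test. Of the 9 most abundant paralogues per length in WT-Taf, 6 were called lower and 1 higher in each Taf knockout, with 5 lower in both, since Rnf2 was called only in Taf5l-KO and Rbbp7 only in Taf6l-KO. Of the 17 others 3 were called lower and 7 higher in each, with 3 lower and 5 higher in both. Over all genes tested, the most abundant of 4 equal bins had 27.1% called lower and 23.0% higher in Taf5l-KO and 35.2% and 21.6% in Taf6l-KO. The next bin down had 18.6% lower and 22.6% higher in Taf5l-KO, and 19.6% and 24.4% in Taf6l-KO. Below it stood 12.3% and 17.6% in Taf5l-KO, and 12.5% and 21.3% in Taf6l-KO. The lowest bin had 5.44% and 6.3% in Taf5l-KO, and 5.29% and 8.95% in Taf6l-KO. Families that split were Mtf2 lower beside Phf19 higher, Pcgf2 lower beside Bmi1 higher (0.54 ± 0.124 and 0.37 ± 0.125), Cbx7 lower beside Cbx8 higher (1.19 ± 0.252 and 1.10 ± 0.251), and Phc1 lower (-0.09 ± 0.028 and -0.16 ± 0.028) beside Phc2 higher (0.27 ± 0.056 and 0.20 ± 0.055). Other families did not split in this way: Cbx6 was lower with Cbx7, Pcgf6 was lower with Pcgf2, Rbbp4 and Rbbp7 were both lower in Taf6l-KO, and Bcor, the more abundant of its family, was higher. Cbx8 remained far below Cbx7: it was at 1.62 CPM in Taf6l-KO, where Cbx7 was at 96.3. In cMyc-KO 2 of the 9 leading paralogues (ranked in WT-Myc) were called higher and the other 7 were not called. Of the 17 others 4 were called higher and 0 lower. Over all genes tested in cMyc-KO, the most abundant bin had 20.7% called lower and 16% higher, and the lowest bin 16.1% and 9.64%.

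**Figure D4:**
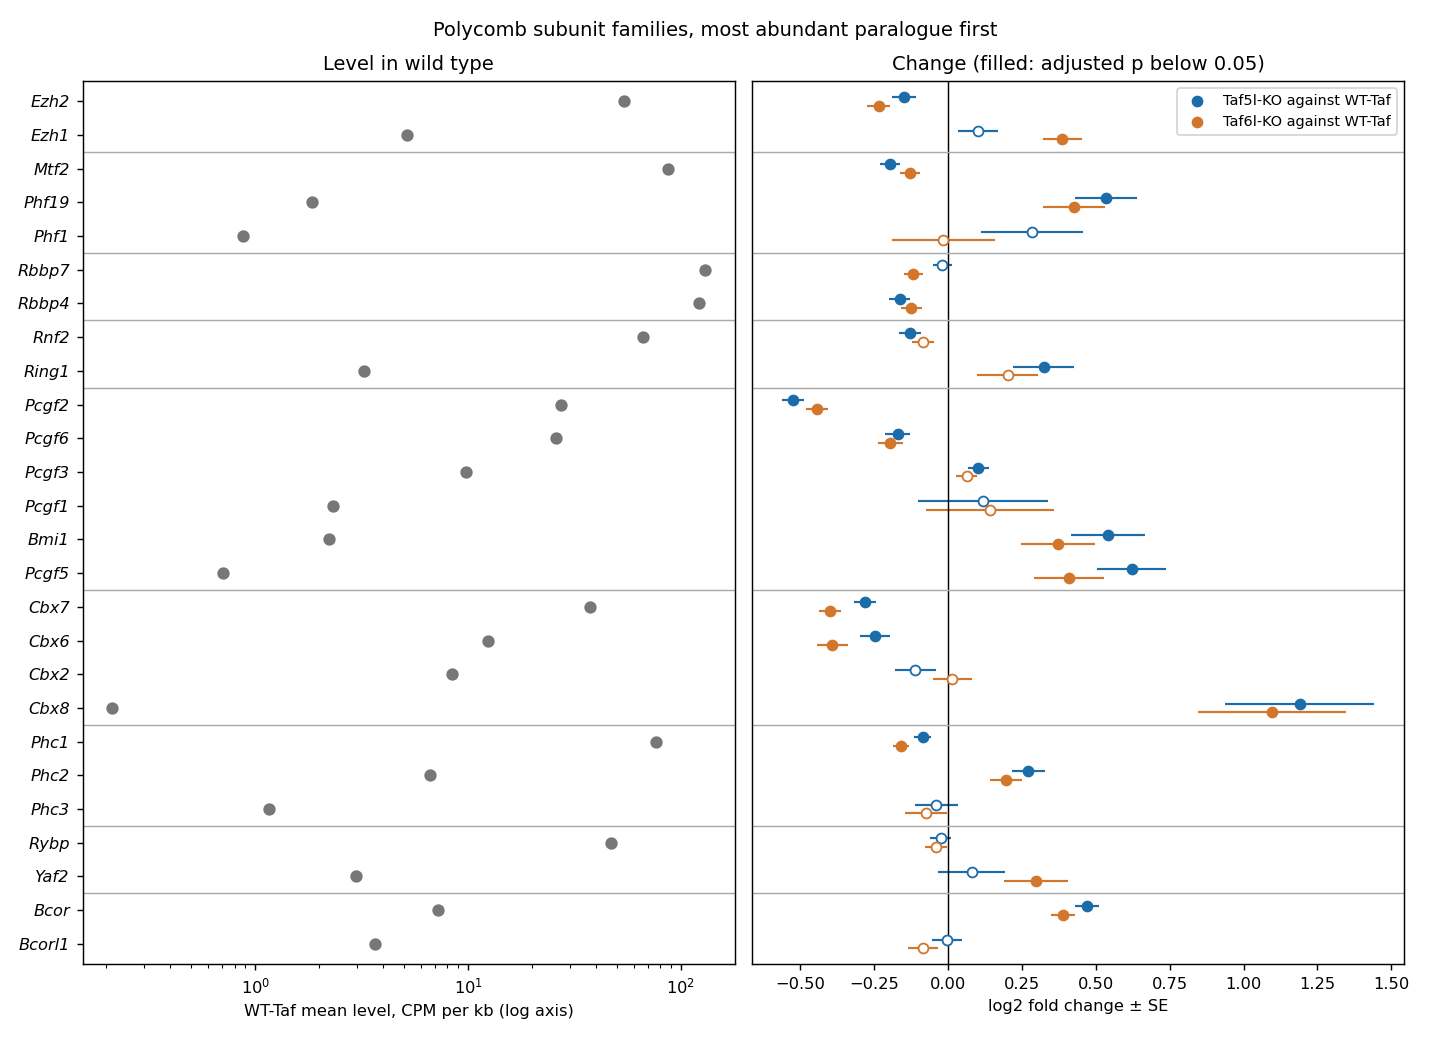
Left, mean level in WT-Taf (CPM per kb, log axis) of 26 Polycomb subunits in 9 families separated by lines, most abundant first; right, log2 fold change (± SE) in Taf5l-KO and Taf6l-KO, filled where the adjusted p was below 0.05. In each knockout 6 of the 9 top genes are called lower (5 in both) and 7 of the 17 rarer genes higher (5 in both).

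Of 12 genes for proteins that work against Polycomb, 3 were called higher and 9 not called in Taf5l-KO, and 5 were called higher and 1 lower in Taf6l-KO (3 and 0 without WT-Taf replicate 2). The share called was 25% in Taf5l-KO, 50% in Taf6l-KO and 50% in cMyc-KO, against 33.2%, 37.2% and 34.8% of all genes tested. Asxl1 and Asxl2, partners of the H2A deubiquitinase, rose by 0.17 ± 0.035 and 0.22 ± 0.045 in Taf5l-KO and by 0.19 ± 0.034 and 0.21 ± 0.045 in Taf6l-KO. In cMyc-KO the balance was 1 higher and 5 lower, with the H3K36 methyltransferase Nsd1 falling by 0.53 and the H3K4 methyltransferase Kmt2c by 0.54 on the log2 scale (adjusted p = 0.000126 and 0.000713).

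Developmental genes that Polycomb is known to cover changed in both directions. Of 109 listed, 108 matched a gene and 40 were expressed enough to test in each experiment. Of these 9 were called higher and 7 lower in Taf5l-KO, 12 and 9 in Taf6l-KO and 11 and 11 in cMyc-KO. That was 40%, 52.5% and 55% of the 40, where 33.2%, 37.2% and 34.8% of all genes tested were called. From FPKM with limma 5 and 1, 4 and 2, and 4 and 4 were called. The medians were 0.17, 0.33 and -0.10 on the log2 scale. Since a gene could pass the filter through the group in which it was high, these counts describe the tested genes alone. The sum over all 108 was 166 ± 4.31 CPM in WT-Taf, 186 ± 3.11 in Taf5l-KO and 172 ± 4.50 in Taf6l-KO. It was 211 ± 9.12 in cMyc-KO and 151 ± 0.899 in WT-Myc. The sum leans on a few abundant genes and does not describe the list as a whole. Foxd3 alone was 85.6 CPM in cMyc-KO and 46.2 in WT-Myc, and Meis2 was 34.9 and 11.1. In the Taf experiment Foxd3 was 76.5 CPM in WT-Taf, 68.0 in Taf5l-KO and 60.5 in Taf6l-KO.

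Meis2, a homeobox cofactor of Hox proteins, was called higher in all 3 knockouts: 20.5 CPM in Taf5l-KO and 12.5 in Taf6l-KO against 5.03 in WT-Taf, and 34.9 in cMyc-KO against 11.1 in WT-Myc. Cdkn2a, the cell cycle inhibitor locus that is a classic Polycomb target, rose from 3.56 CPM in WT-Taf to 12.2 in Taf5l-KO and 10.4 in Taf6l-KO, by log2 fold changes of 1.79 ± 0.130 and 1.57 ± 0.131. The pluripotency factor gene Foxd3, also on the list, fell by 0.17 and 0.34 in the Taf knockouts (adjusted p = 0.0056 and 1.73e-05) and rose by 0.89 ± 0.100 in cMyc-KO (adjusted p = 0.000461). Sox7, an endoderm regulator, fell by 0.96 and 1.23 in the Taf knockouts (adjusted p = 0.0022 and 0.000301).

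Of 39 Hox genes 9 could be tested in the Taf libraries and 8 in the Myc libraries, the others being too low. Called genes included Hoxc13 higher in Taf5l-KO, Hoxb1 higher and Hoxd13 lower in Taf6l-KO, and Hoxb13, Hoxc4 and Hoxc13 higher in cMyc-KO. Hoxc4 went from 0.386 CPM in WT-Myc to 1.92 in cMyc-KO, and Hoxb1 from 1.72 CPM in WT-Taf to 4.50 in Taf6l-KO. Genes this low could pass the filter through the group in which they were high. Such calls therefore describe the tested genes alone and not the Hox genes as a set.

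The promoters of the members were searched for CACGTG, the E-box letters that MYC and its partner MAX bind, which read the same on both strands. RefSeq (GRCm38.p6, another build than the mm9 named by the submitters) gave 15 windows of 250 bases upstream of a start for the 10 members, and 0 of the 15 held the letters, where 6.02% of all 32851 windows did. CpG dinucleotides numbered 2 to 38 per member window against a median of 6, and 14 of the 15 windows had at least that many. The window of Cbx7 held 23 and that of Suz12 held 37. The absence of the letters says only that they are not in these windows.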

How the data were processed

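Members, gene lists and alternatives were chosen with earlier results of these data known. Estimated counts (whole numbers) and FPKM were both made and deposited by the authors. Of tools and build, Salmon 0.8.2, DESeq2 1.14.1 and mm9 stand in the submitters' processing notes with no role, and neither annotation nor strand setting is given in the sources used here. The deposited FPKM implies lengths such as 84.3 bases for Kdm2b, whose longest coding transcript has 5180, so it was used only as an alternative. The authors' normalized counts were not used, nor were 15 columns of the TPM table, since some names matched no sample.

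Samples were grouped by title. The estimated counts, already whole, went into edgeR 4.0.16 under R 4.3.3 (TMM, filterByExpr, glmQLFit and glmQLFTest, Benjamini-Hochberg over all genes tested, threshold 0.05), with the 9 Taf and the 6 Myc libraries fitted separately and all 15 for the difference between experiments. The standard error is the log2 fold change divided by the square root of F. The procedure was tested on simulated data. Total counts per library ran from 14935631 to 27650813. Lengths and chromosomes come from GENCODE M21, matched by ID for 87.4% of genes. As alternatives, scaling was done by RLE or by library totals, the filter was dropped, DESeq2 1.42.0 was used, limma 3.58.1 (limma-trend) was run on log2(FPKM + 1) above a mean FPKM of 0.5, and further fits had the replicate number as a block, all 15 libraries, only the compared groups, or 1 library fewer. Named genes were all members, the targeted genes and, per other list and knockout, up to 4 each way by smallest adjusted p with a mean of at least 20 counts; Bmi1, Cbx8 in Taf5l-KO and Hox genes outside this rule were chosen after their values were seen. Figures were drawn with Python 3.11.15 and matplotlib 3.10.9. By the rule, no promoter is printed, since none held CACGTG. Some genes of the lists are not reported here.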

Additional observations from a re-analysis of the deposited data

Results flagged for a closer look

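The mean Taf effect differed from the Myc effect for 7 members in the test of that difference itself (edgeR, all 15 libraries, adjusted p under 0.05). In log2 units the differences were -0.64 for Cbx7, -0.52 for Mtf2, -0.45 for Pcgf6, -0.42 for Eed, -0.35 for Rnf2, -0.23 for Kdm2b and -0.12 for Jarid2. In all 7 the mean Taf effect against WT-Taf lay below the effect of cMyc-KO against WT-Myc. These are differences between effects and not between levels. Experiment and knockout cannot be told apart here, because each experiment has its own wild type and its own libraries.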

How the results depend on the processing

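The count of members called in Taf5l-KO was 9, and 5 from FPKM with limma; it was 6 to 9 with each library left out. In Taf6l-KO it was 8, and 7 to 8. Between the Taf knockouts it was 4, but 2 from FPKM, 1 with all 15 libraries in a single fit, and 2 to 4 with a library left out. For cMyc-KO it was 3, but 5 with all 15 libraries in a single fit, and 1 to 4 with a library left out (1 without WT-Myc replicate 2 or 3). For the difference between experiments it was 7, and 6 to 8. That difference already uses all 15 libraries.

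With the replicate number as a block, cMyc-KO had 0 members called (Cbx7 0.26, adjusted p = 0.0512), and no other count of members moved by over 1.5 times. Libraries sharing a number did not deviate together (correlations -0.384 to -0.00167, own number best in none), so the numbers are not taken as pairs.

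Some signs turned, none of them on a called value except that of Jarid2 in the difference between experiments (0.01673 from FPKM). With library totals Taf6l-KO minus Taf5l-KO was 0.006256 for Ezh2, 0.09025 for Jarid2 and 0.06727 for Pcgf6. For Jarid2 it was 0.0003841 with all 15 libraries and -0.01358 to 0.00713 with a library left out. Kdm2b in cMyc-KO was 0.02333 with library totals, 0.003984 without a filter, 0.006088 by DESeq2, 0.01438 with all 15 libraries and -0.0301 to 0.0184 with a library left out.

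Over all genes, FPKM with limma called 1391 higher and 1242 lower in Taf5l-KO and 1375 and 1743 in Taf6l-KO, against 2735 and 2499, and 3003 and 2858. In cMyc-KO it called 1528 and 1636 and the block 1216 and 1923, against 2217 and 2847. Between the Taf knockouts FPKM gave 364 and 562, DESeq2 697 and 1152 and all 15 libraries 803 and 844, against 1346 and 1592. The cause of these differences was not tested. Ring1, at 93 to 196 counts per library, is where depth limits most.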

Other observations

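For each member the gene with the most similar pattern was found over the 15 libraries, as log2 CPM less the mean of the own wild type, among 14141 genes. Pearson's r was 0.99 for Cbx7 and Coro1b, an actin regulator, 0.98 for Eed and Fkbp3, 0.98 for Mtf2 and Sumo2 and 0.98 for Pcgf6 and Hdac2, a histone deacetylase. It was 0.97 for Ezh2 and Hsp90aa1, a chaperone, 0.97 for Suz12 and Haus3, 0.97 for Jarid2 and Mdc1, 0.97 for Rnf2 and Srsf6, 0.97 for Kdm2b and Ctdsp2, and 0.91 for Ring1 and Aass. Among the members themselves the closest pairs were Mtf2 and Rnf2 (0.954), Mtf2 and Pcgf6 (0.935) and Eed and Pcgf6 (0.932). The points share libraries and wild-type means, and cMyc-KO replicate 3 is high for most of these genes.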
